A study of Daphnia magna with 15 samples.

Results

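The libraries compared here are 6 of the 15 of a bisulfite sequencing series on Daphnia magna, a freshwater crustacean (water flea) common in tests of water toxicity. They are the 3 libraries labelled control, with the titles 3.S1, 7.S10 and 9.S17, and the first 3 libraries labelled salinity by title number, with the titles 11.S2, 25.S11 and 27.S18. The salinity trio was picked by its title numbers and not by any measured value. All were genomic DNA of adult females. The founders of the control cultures had no added sodium chloride (0 g/L) and those of the salinity cultures 4.1 g/L, and both were kept at 20 °C under a daily cycle of 16 h light and 8 h dark. Per the labels' protocols, generations after the exposed one lived in control medium up to generation 4, and there were 3 cultures per exposure. The labels do not say which generation or culture a library came from, so the trio may hold exposed animals or descendants that never met the salt. The age in days, the clone and the number of animals per library are not in the labels either.

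In animals, cytosine methylation is laid down by DNA methyltransferases and copied to daughter strands at cell division. In crustaceans and insects it is sparse, and sits mainly within the transcribed bodies of a small set of genes rather than across the whole genome as in mammals. Laboratory cultures of Daphnia reproduce by parthenogenesis, so that mothers and daughters share their genome, which has made the animal a model for asking whether marks set by an environmental stress persist in unexposed offspring. The comparison addresses the first part of that question, namely whether methylation of gene models differed between libraries labelled salinity and control.

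After bisulfite treatment unmethylated cytosines are read as thymine, so a cytosine that is still read as one counts as methylated. For each gene model (mRNA) listed in a library, the deposited counts gave how many cytosines were read (calls) and how many of these calls were methylated, and the level is the second as a percentage of the first. The gene model identifiers could not be paired with gene names (0 of 25092 matched the reference table), so the genes are described by their values, and no sequence is shown.

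The controls held 2467138, 2318745 and 2115766 calls in 3.S1, 7.S10 and 9.S17, and the trio held 1959728, 2155553 and 1341605 in 11.S2, 25.S11 and 27.S18. The lowest recurring methylated count, meaning the smallest one held by 5% or more of a library's methylated gene models, was 4 in 9.S17 and 3 in the other 5 libraries. Small methylated counts are thus nearly missing. If a cut-off acted on the count of a gene model, one at level 0 may have had up to 2 methylated calls, or up to 3 in 9.S17. If it acted on single positions before summing, more calls may be missing, and the rule is not stated. Of the 25045 gene models listed in any of the 6 libraries, 1457 had at least 10 calls in all 6, and the levels that follow are over these unless stated otherwise. They carried 8.32% to 11.7% of a library's calls, with a median depth of 51 calls (27.S18) to 82 calls (25.S11). At those depths a methylated count of 3 is a level of 5.88% and 3.66%, so weak methylation was visible only in the deeply read gene models.

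The overall methylation level of the salinity trio lay close to that of 2 of the 3 controls, and the third control stood apart. Of the calls in the 1457 gene models, 0.310% were methylated in 3.S1, 0.314% in 7.S10 and 0.159% in 9.S17. In the trio the share was 0.321% in 11.S2, 0.303% in 25.S11 and 0.289% in 27.S18. The trio thus lay around the first 2 controls and well above 9.S17. The counts behind these shares were 636, 670 and 301 methylated calls in the controls and 569, 763 and 432 in the trio. The Wilson 95% interval of 9.S17 ran from 0.142% to 0.177%, below that of any other library, the lowest of which began at 0.263% (27.S18). The gap was narrower when the lowest count was made alike per gene model. With gene model counts below 4 set to 0 in every library, 9.S17 stayed at 0.159%. The others then lay between 0.213% (27.S18) and 0.262% (11.S2). Only counting error enters the Wilson intervals, and cytosines read on 1 molecule are not independent. Across the whole series, the level over every listed gene model went with the lowest count. Libraries with a lowest count of 4 were at 0.155% (9.S17), 0.190% (51.S20), 0.124% (54.S14) and 0.106% (55.S21). Those with a lowest count of 3 lay between 0.284% (27.S18) and 0.384% (36.S12). Why was not tested.

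The controls averaged 0.261% ± 0.0887 (SD, n = 3) and the trio 0.304% ± 0.0162 (SD, n = 3). They differed by 0.0434 percentage points, less than the spread between controls (exact permutation test, two-sided, over all 20 splits; p = 0.7, where 0.1 is the smallest p that 3 against 3 libraries allow). The 90% interval from inverting that test ran from -0.0257 to 0.163 percentage points. Without 9.S17 the controls averaged 0.312% ± 0.00316 (SD, n = 2) and the trio was lower by mean, and the difference was -0.00779 percentage points (p = 0.7, exact permutation). The direction of the pooled difference thus rested on 1 control library. With all 3 controls kept and counts below 4 set to 0 in every library, the difference was 0.0174 percentage points (exact permutation p = 0.8).

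**Figure D1:**
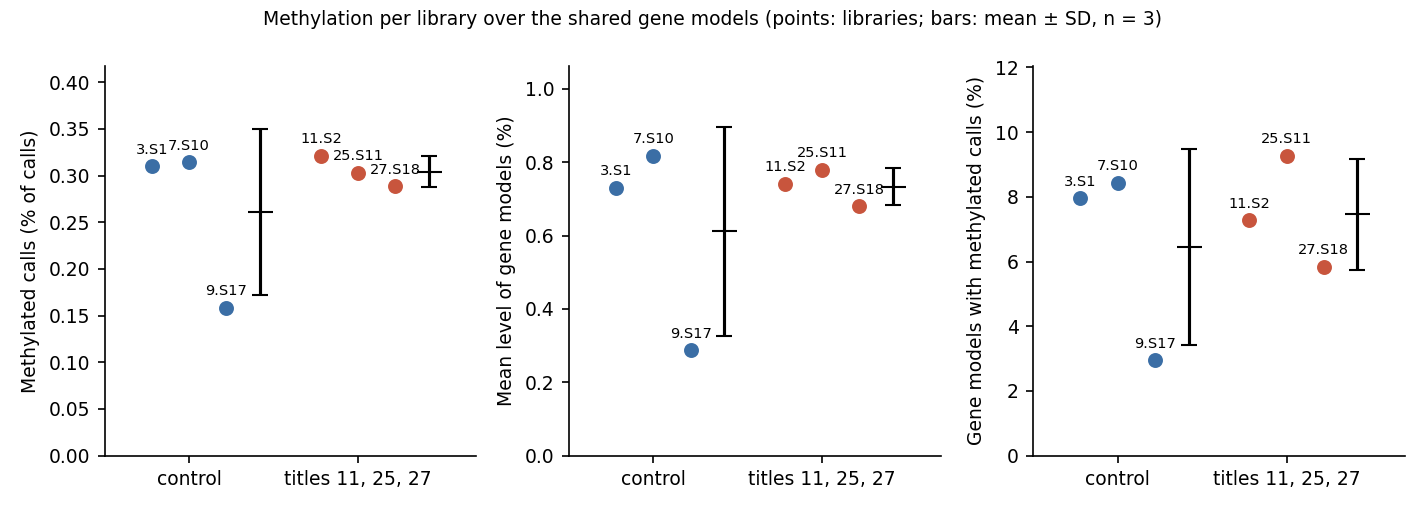
Share of methylated calls, mean level of gene models and percentage of gene models with methylated calls (y axes, percent) in the 3 control and 3 salinity libraries, over the 1457 gene models with at least 10 calls in all 6. Points are libraries and bars the mean ± SD. The lowest in each panel is 9.S17, at 0.159%, 0.287% and 2.95%. The trio lies close to the other 2 controls in the first 2 panels. In the third it spreads from 5.83% (27.S18) to 9.27% (25.S11), around their 7.96% and 8.44%.

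With equal weight for each gene model 9.S17 was again the lowest library. The mean level was 0.730%, 0.817% and 0.287% in the controls 3.S1, 7.S10 and 9.S17 and 0.741%, 0.779% and 0.680% in 11.S2, 25.S11 and 27.S18. All 3 libraries of the trio lay below 7.S10 and above 9.S17. The controls averaged 0.611% ± 0.284 (SD, n = 3) and the trio 0.734% ± 0.0499 (SD, n = 3) (exact permutation p = 0.8). Without 9.S17 the difference of 0.122 percentage points turned to -0.0398 (exact permutation p = 0.5).

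Methylated calls were present in 116, 123 and 43 of the 1457 gene models in the controls and in 106, 135 and 85 in the trio. As shares these were 7.96%, 8.44% and 2.95% against 7.28%, 9.27% and 5.83%, so the groups overlapped and 27.S18 was the lowest of the trio. The difference in mean share was 1.01 percentage points (exact permutation p = 0.7), and -0.744 without 9.S17 (exact permutation p = 0.7). When gene model counts below 4 were set to 0 in every library, the means were 4.74% ± 1.56 and 4.83% ± 1.58 (SD, n = 3 each; exact permutation p = 1). This gives all 6 the lowest count of 9.S17 per gene model. It may not match the libraries if the submitters' rule acted on single positions. In that setting 9.S17 kept its 43 gene models, and the other 5 libraries had 47 (27.S18) to 93 (25.S11). The 85 gene models of 27.S18 as deposited included 38 with a count of 3.

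Where methylation was present, its level overlapped between the groups. The median level of methylated gene models was 5.92%, 6.90% and 4.85% in the controls and 7.35%, 4.93% and 8.33% in the trio. The 2 extremes of the trio were its deepest library (25.S11, low) and its shallowest (27.S18, high). Levels of 10% or more were found in 33, 47 and 19 gene models of the controls and in 34, 36 and 35 of the trio. The trio libraries lay within 2 gene models of each other, and the controls both above and below them (2.26% ± 0.961 against 2.40% ± 0.0686, SD, n = 3 each; exact permutation p = 0.7). A level of 50% or more occurred in 3 gene models of 3.S1 and 1 of 7.S10, and in 0 of the other 4 libraries. The highest level was 66.7% in the controls (3.S1) and 46.2% in the trio (27.S18), both in gene models with few calls.

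Splitting the gene models by their mean depth over the 6 libraries showed where methylated calls lay. In the 206 gene models with a mean under 30 calls, 1.34% ± 0.780 of calls were methylated in control and 1.84% ± 0.447 in the trio (SD, n = 3 each; exact permutation p = 0.5). In the 777 with 30 to under 100 calls the values were 0.560% ± 0.258 and 0.721% ± 0.0765 (SD, n = 3 each; exact permutation p = 0.4). In the 474 with 100 calls or more they were 0.136% ± 0.0208 and 0.125% ± 0.0225 (SD, n = 3 each; exact permutation p = 0.6). In both groups the level was lower the deeper the class. The mean of the trio was the lower one only in the deepest class, where 9.S17 (0.115%) was above 27.S18 (0.102%).

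By the S numbers in their titles the libraries form 3 bands, with 1 control and 1 library of the trio in each (S1 with S2, S10 with S11, S17 with S18). The overall level of the trio library was higher by 0.0112 percentage points in the first band, lower in the second (-0.0112) and higher by 0.130 in the third, which holds 9.S17. The labels do not say what the bands are, and with 1 library per group in each the differences within bands have no replicate check.

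The trio listed fewer gene models on average than the controls. The controls listed 15803, 14631 and 13647 gene models, and the trio 13769, 9501 and 10523. Only 11.S2 reached the range of the controls. The means were 14694 ± 1079 and 11264 ± 2228 (SD, n = 3 each), and the difference of -3429 gene models had an exact permutation p of 0.2. All 3 controls listed 7190 gene models and all 3 trio libraries 3360. Of the 25045 listed in any of the 6, 1692 (6.76%) were in all 3 controls and in none of the trio. Only 10 (0.0399%) were in all 3 of the trio and in no control. The largest set defined by which libraries listed it held 2999 gene models, found in 3.S1 and 11.S2 and in none of the other 4. Presence in a table thus varied in blocks that crossed the groups as well as between them, and no test was made of these sets. The 1457 compared gene models are 5.82% of those listed.

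Most gene models had no methylated call in either group. Of the 1457, 1150 (78.9%) had none in any of the 6 libraries, and 307 had some in at least 1. Of these 307, 146 (47.6%) were methylated in a single library. There were 126 with methylated calls in both groups, 78 in controls only and 103 in the trio only. The 126 are 61.8% of the 204 gene models methylated in a control and 55.0% of the 229 methylated in the trio.

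Gene models methylated more than once were mostly common to both groups. The trio carried methylated calls at 49 (79.0%) of the 62 gene models methylated in 2 or more controls, and of 79 methylated in at least 2 trio libraries, 57 (72.2%) were also methylated in a control. In 4 gene models all 6 libraries carried methylated calls, and in 8 others 5 of them did. All 3 controls and none of the trio were methylated in 3 gene models (0.206% of the 1457), and the reverse held for 5 (0.343%). The 1150 never methylated count in these shares but could not fall in either class. Other gene models methylated in 3 libraries were 27 with 1 control and 2 of the trio, and 17 with 2 controls and 1 of the trio.

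**Figure D2:**
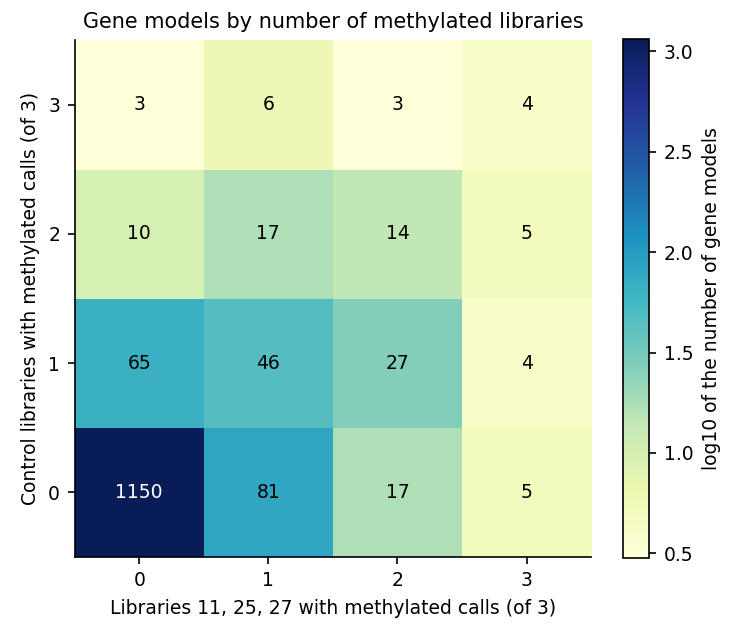
Number of gene models (printed in each cell, colour on a log10 scale) by the number of control libraries (y axis) and of libraries 11.S2, 25.S11 and 27.S18 (x axis) in which they had methylated calls. The 1457 gene models are counted once each; 1150 lie at 0 and 0, 4 at 3 and 3, and the corners with all libraries of 1 group and none of the other hold 3 and 5.

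Pairs of libraries shared methylated gene models to a like extent within and between groups. The shared ones as a percentage of those methylated in either library ranged from 19.6% to 23.0% over the 3 pairs of the trio, from 16.1% to 25.8% over the 3 pairs of controls, and from 11.3% to 24.3% over the 9 pairs of a control with a trio library. The lowest values all involved 9.S17, which had the fewest methylated gene models. Of the 43 methylated in that library, 22 (51.2%) were also methylated in 25.S11, 18 (41.9%) in 11.S2 and 13 (30.2%) in 27.S18. Between 3.S1 and 7.S10 there were 49 shared gene models, and 49 also between 3.S1 and 25.S11 and between 7.S10 and 25.S11. Across the 1457 gene models the levels of 2 libraries had a Pearson r of 0.344 to 0.436 within the trio, 0.266 to 0.529 within the controls and 0.177 to 0.481 between them. Gene models are not independent replicates, most are at 0 in both libraries, and the values describe these libraries only.

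Single gene models were then compared. None of the 1457 passed the test (quasi-binomial logistic regression of methylated against all calls, Benjamini-Hochberg adjusted p under 0.05; 0% called), with 1 as the smallest adjusted p. That smallest value depended on the setting, though 0 were called in each. It was 0.0698 in the regression without a floor of 1 on the dispersion. With the other 9 salinity libraries in the fit it was 0.250, and on the 307 gene models with methylated calls 0.412. With 4 residual degrees of freedom the regression on the 6 libraries had little power for single gene models. A gene model with 13 of 40 calls methylated in the controls and 0 of 46 in the trio had an unadjusted p of 0.00894 there. The 0 calls thus do not show that levels were equal. In the first fit 24 had an unadjusted p under 0.05, 8 with the lower mean in the trio (0.549% of those tested) and 16 with the higher (1.10%). Without 9.S17 there were 15 (8 lower, 7 higher), without 7.S10 8 (4 lower, 4 higher) and without 3.S1 14 (6 lower, 8 higher). The excess of higher means was thus smaller or absent without any single control, and it was kept without any single library of the trio (4 or 5 lower against 13 to 15 higher). Among the 307 gene models with methylated calls, the mean of the trio was the higher one in 166 and the lower one in 141. Against 3.S1 and 7.S10 alone 148 were higher and 156 lower. The median difference over the 307 was 0.187 percentage points, and the middle 50% of them ran from -1.22 to 2.28. A difference of more than 10 percentage points was found in 22, of which 14 were higher and 8 lower in the trio.

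Other tests differed in what they called. The edgeR quasi-likelihood test on the 307 gene models with methylated calls called 0, with 3 at an unadjusted p under 0.05 and a smallest adjusted p of 0.713. Limma on logit levels called 5 of the 1457 (0.343%), 2 lower and 3 higher in the trio, all of them among the gene models without overlap described next. Limma called 0 when run on the 307 gene models with methylated calls, and 0 without 3.S1, without 9.S17 or without 27.S18. Of the 1457, it called 6 without 7.S10, 8 without 11.S2 and 8 without 25.S11. Among these, 2, 4 and 5 belonged to the 5 called with all libraries. Of the 61 gene models with an unadjusted limma p under 0.05, 28 had no methylated call in any library, so that in these the number of calls alone differed. Fisher's exact test on calls pooled by group, which ignores the spread between libraries, called 24 of the 1457 (11 lower, 13 higher).

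**Figure D3:**
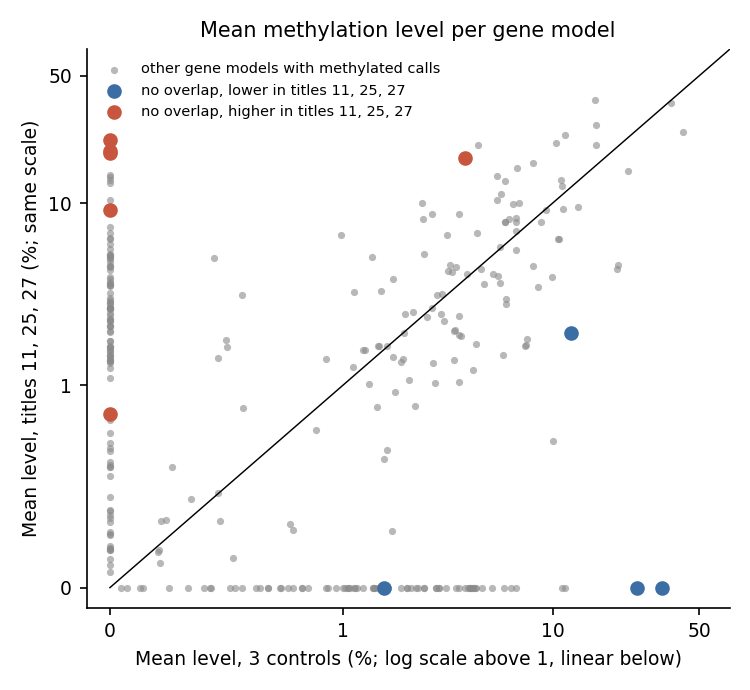
Mean level of each gene model with methylated calls in the 3 controls (x axis) and in the 3 libraries of the trio (y axis), in percent, on axes that are linear below 1 and logarithmic above. Each of the 307 points is a gene model and the line marks equal means; the coloured points are the 4 lower and 6 higher gene models without overlap, most of which lie on an axis because 1 group is at 0.

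The levels of the 2 groups did not overlap in 10 gene models, 0.686% of the 1457. Of these, 4 were lower in the trio (0.275%) and 6 higher (0.412%). The 1150 gene models without methylated calls count in these shares but could not separate. None passed the regression (adjusted p = 1 for each), and 0.1 is the lowest p that a two-sided exact permutation of 3 against 3 levels can reach. With 20 or more calls required in all 6 libraries, 5 of 1095 gene models were without overlap, 1 lower and 4 higher. With counts below 4 set to 0, 4 were lower and 3 higher. The identifiers printed are the 2 with the smallest p in each direction.

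Dapma7bEVm030670t1 had methylated calls in the controls only. Its level was 40.0% in 3.S1, 28.6% in 7.S10 and 31.2% in 9.S17, and 0 in 11.S2, 25.S11 and 27.S18. All 3 controls thus lay far above the trio, but on 40 calls in the controls and 46 in the trio. The mean difference was -33.3 percentage points (unadjusted p = 0.00894, adjusted p = 1 in the quasi-binomial regression; limma adjusted p = 0.0145). In the 9 other salinity libraries, 6 had at least 10 calls and 1 of them was methylated, at 23.5%.

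Dapma7bEVm644907t1 was deeply read and weakly methylated. The controls were at 1.94%, 1.29% and 1.5%, with 6, 4 and 5 methylated calls of 310, 310 and 333. The trio was at 0 of 264, 463 and 245 calls. The groups did not overlap, and the mean difference was -1.58 percentage points (unadjusted p = 0.00999, adjusted p = 1 in the quasi-binomial regression; limma adjusted p = 0.0208). Of 3 other salinity libraries with enough calls, 2 were methylated, up to 5.22%. The remaining 2 of the lower gene models had control levels of 10.5% to 47.6% against 0, and of 9.62% to 16.1% against 5.80%, 0 and 0.

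Dapma7bEVm006996t1 had methylated calls in the trio only. The controls were at 0 of 101, 54 and 53 calls, and the trio at 8.43%, 5.56% and 13.6% of 83, 54 and 44 calls. The difference was 9.21 percentage points (unadjusted p = 0.00735, adjusted p = 1 in the quasi-binomial regression; limma adjusted p = 0.0306). The value of 25.S11 was a count of 3, so that with counts below 4 set to 0 the groups touch. All 9 other salinity libraries had enough calls, and 1 was methylated, at 8.82%.

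Dapma7bEVm002701t1 also had methylated calls in the trio only. The controls were at 0 of 30, 22 and 23 calls, and the trio at 16.0%, 18.9% and 21.7%, which are 4, 7 and 5 methylated calls of 25, 37 and 23. The mean of the trio was 18.9% ± 2.87 (SD, n = 3; unadjusted p = 0.00952, adjusted p = 1 in the quasi-binomial regression; limma adjusted p = 0.0145). Of 6 other salinity libraries with enough calls, 3 were methylated, up to 20.0%.

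The 4 other higher gene models differed in depth and margin. One had 2738 calls in all and levels of 0.683%, 1.12% and 0.765% in the trio against 0 in the controls. Another had 9.09%, 15.9% and 33.3% against 0, and the third 6.35%, 14.3% and 46.2% against 0. In these 2 the levels within the trio spread up to the shallowest library, 27.S18, with 18 and 13 calls. The fourth had the smallest margin, with 11.4% in 9.S17 (4 of 35 calls) against 11.5% in 11.S2 (3 of 26 calls), and 0 in the other 2 controls.

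**Figure D4:**
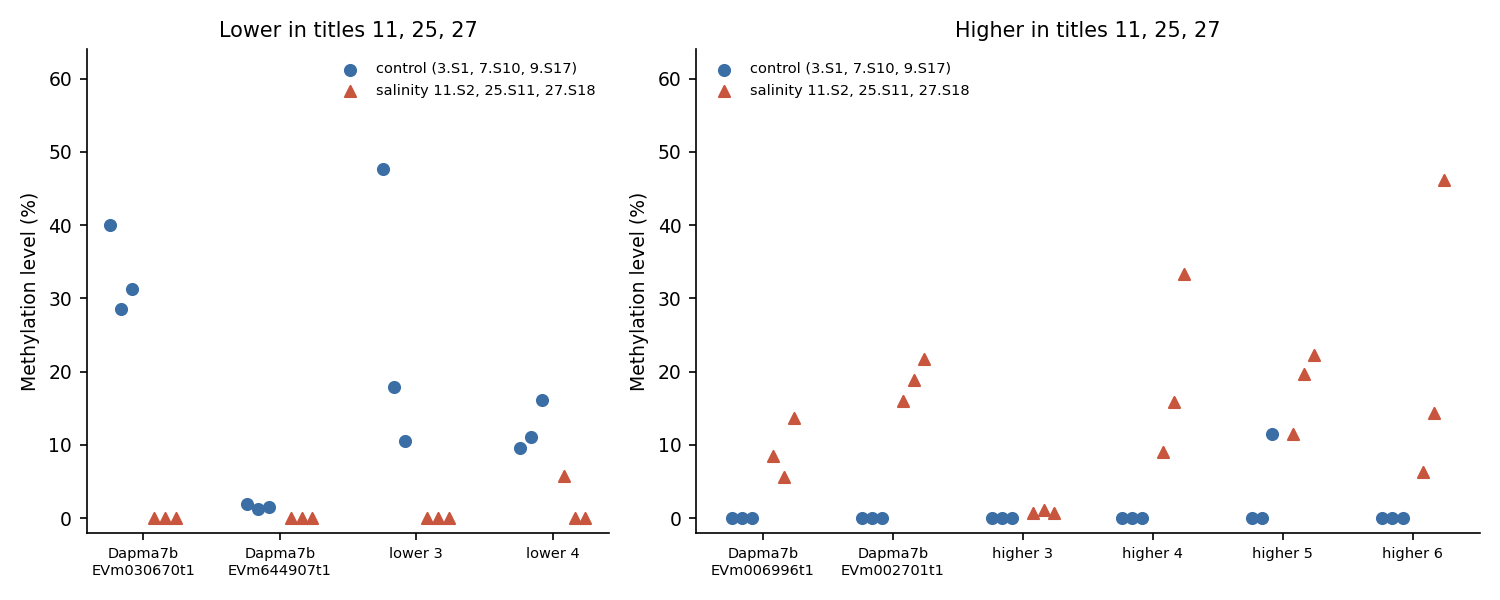
Methylation level (y axis, percent) of the 4 gene models lower and the 6 higher in the trio whose levels did not overlap between groups, with 1 point per library (circles: controls; triangles: 11.S2, 25.S11, 27.S18). In 8 of the 10, all 3 libraries of 1 group are at 0; the identifiers are those with the smallest p in each direction and the others are numbered in that order.

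The other 9 salinity libraries, which took no part in choosing these gene models, carried methylation at both kinds. Taking each gene model in each library with at least 10 calls as 1 listing, 5.60% of 10914 listings of the 1457 gene models were methylated. For the 5 gene models methylated in the whole trio and no control it was 17 of 39 (43.6%), and for the 3 methylated in every control and none of the trio 4 of 12 (33.3%). For those methylated in the whole trio it was 53.0% of 134 listings (18 gene models), and for those methylated in all 3 controls 52.8% of 108 (16 gene models). For the 1150 without methylated calls in the 6 libraries it was 1.23% of 8692. These shares describe few gene models that are read in the same 9 libraries, and no test was made of them.

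Only 4 gene models were methylated in all 6 libraries. The first had the highest mean level of all 1457, with 57.1%, 31.2% and 21.4% in 3.S1, 7.S10 and 9.S17 and 38.1%, 31.6% and 37.0% in 11.S2, 25.S11 and 27.S18. The trio lay inside the range of the controls, on 16 to 28 calls per library (means 36.6% ± 18.5 and 35.6% ± 3.50, SD, n = 3 each; exact permutation p = 1). The other 3 were deeply read and weakly methylated. One was at 3.54%, 2.47% and 3.72% in the controls and at 3.86%, 1.95% and 7.92% in the trio, with 240 to 514 calls. The last 2 had nearly the same number of calls in each library, 772 to 1417 and 746 to 1406, and may share reads. Their levels ran from 0.978% to 1.40% and from 0.902% to 1.45% in the controls, and from 0.706% to 2.46% and from 0.711% to 1.58% in the trio. In each of these 3 the trio spread further than the controls, with 25.S11 the lowest library of all, and the exact permutation p ran from 0.7 to 0.8.

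The gene models next in mean level were methylated in some libraries of both groups and at 0 in others. The second was at 66.7%, 58.8% and 0 in the controls and at 42.9%, 0 and 30.8% in the trio. The third was at 21.4%, 26.3% and 0 against 40.9%, 44.7% and 25.0%, the fourth at 25.0%, 0 and 23.5% against 45.5%, 35.0% and 0. The fifth was at 52.3%, 16.1% and 0 against 23.5%, 21.4% and 0. In 3 of these 4 the control 9.S17 was at 0, and the groups overlapped in all of them (exact permutation p from 0.2 to 0.9). Their depth was 11 to 51 calls per library.

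A set of gene models was also chosen without the methylated calls of the 6 libraries, though from those read in all 6. Of 1289 gene models that also had at least 10 calls in at least 4 of the other 9 salinity libraries, 32 were methylated in at least 50% of those covering them. Their mean level was 6.09%, 8.31% and 1.16% in the controls 3.S1, 7.S10 and 9.S17 and 7.25%, 6.76% and 9.58% in 11.S2, 25.S11 and 27.S18. The lowest library was 9.S17 and the highest 27.S18. The means were 5.19% ± 3.66 and 7.86% ± 1.5 (SD, n = 3 each; exact permutation p = 0.4). The difference of 2.68 percentage points was 0.663 without 9.S17 and 4.24 without 7.S10, and 0.687 when methylation in at least 30% of the covering libraries was enough (99 gene models). Methylated calls were present in 17, 23 and 8 of the 32 in the controls and in 19, 18 and 17 in the trio. The mean of the trio was above that of the controls in 18 of the 32 and below it in 14, and 3 had an unadjusted p under 0.05. The median difference was 0.585 percentage points, against 0.187 over the 307 gene models with methylated calls in the 6 libraries. The set was chosen on libraries that carry the salinity label, which may favour gene models methylated under that label.

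Against the other libraries with the same treatment label, the trio was higher over gene models read in all of them. Over the 824 gene models with at least 10 calls in all 12 salinity libraries, the overall level was 0.310%, 0.292% and 0.283% in 11.S2, 25.S11 and 27.S18. In the 9 others it had a lowest value of 0.139%, a median of 0.230% and a highest value of 0.262%, so the 2 sets did not overlap. The means were 0.295% ± 0.0137 (SD, n = 3) and 0.215% ± 0.0439 (SD, n = 9), which differ by 0.0799 percentage points (two-sided exact permutation over 220 splits, p = 0.0227). With Benjamini-Hochberg adjustment over 4 measures the p was 0.0909, and the mean level (exact permutation p = 0.0727), the share carrying methylated calls (p = 0.1, exact permutation) and the number of listed gene models (p = 0.523, exact permutation) did not pass.

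That difference depended on the gene models taken. Of the 9 others, 3 had a lowest methylated count of 4. With the 6 others that have a count of 3, the means over the 824 were 0.295% and 0.234% (exact permutation over 84 splits, p = 0.0119, the smallest that these splits gave). When each library kept all gene models it covered with 10 or more calls, the trio averaged 0.303% and the 9 others 0.269% (exact permutation p = 0.636). In that setting the 6 others with a count of 3 averaged 0.335%, above the trio, and the difference was -0.0322 percentage points (p = 0.202, exact permutation). The cause was not tested.

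**Figure D5:**
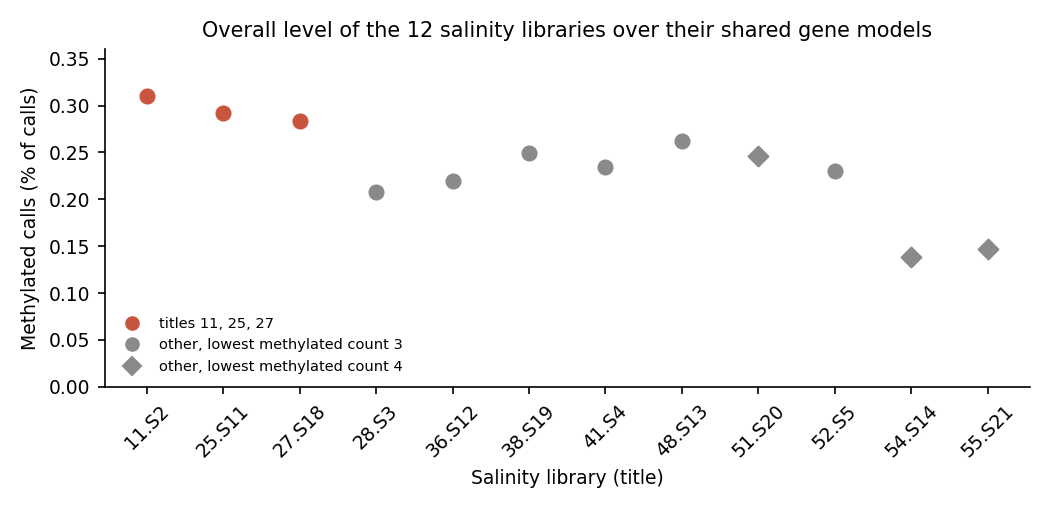
Share of methylated calls (y axis, percent) in each of the 12 salinity libraries, by title, over the 824 gene models with at least 10 calls in all of them. Each point is 1 library; 11.S2, 25.S11 and 27.S18 lie at 0.283% to 0.310% and the 9 others at 0.139% to 0.262%, and diamonds mark libraries whose lowest recurring methylated count was 4.

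The labels do not tie libraries to cultures. The spread that these p-values rest on is that between libraries, which may in part be technical.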

How the data were processed

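The submitters cut DNA with MspI (at CCGG), added methylated adapters and treated it with bisulfite, per the labels' protocols. The tools were Trim Galore (0.4.4), FastQC and Bismark (0.18.1), per the submitters' processing notes. Genome build, cytosine context, the rule for a methylated position and the summing over positions are not stated there. Per the file headers, each deposited table holds 2 counts for a gene model, N and X. N was taken as all cytosine calls and X as methylated ones, since X never exceeded N. The authors deposited both as counts, without normalization, but small values of X are nearly missing. The deposited X was treated as an estimated count and rounded, since 27 values over all libraries were not exact whole numbers. Tables were joined by gene model. No 2 of the 6 tables were identical.

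Levels rest on the gene models that had 10 or more calls in all 6 libraries. The test of group means was an exact permutation (two-sided), whose inversion gives a 90% interval. The test of single gene models was a quasi-binomial logistic regression in closed form (two-sided F test, Pearson dispersion floored at 1, 4 residual degrees of freedom, Benjamini-Hochberg adjustment at 0.05), which was tested on simulated data. edgeR 4.0.16, limma 3.58.1 (0.5 added to the counts) and Fisher's exact test were alternatives. Python 3.11.15 and R 4.3.3 were used. The gene models printed by identifier are, among those whose levels do not overlap between the groups, the 2 in each direction with the smallest p. The libraries, sets and tests were chosen with earlier results of these data known.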

Additional observations from a re-analysis of the deposited data

How the results depend on the processing

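Over 9 results, 6 of 112 alternative values turned their direction and 12 counts moved by more than 1.5 times. Tests of 3 against 3 libraries cannot go below 0.1, so that their side of the threshold says nothing about stability. Without control replicate 3 (9.S17) 4 differences turned, to -0.00779 (overall level), -0.0398 (mean level), -0.744 (share with methylated calls) and -0.343 percentage points (share at 10% or more, 0.137 as reported). The last turned to -0.0915 at a level of 50%. Leaving out each library in turn, these ran from -0.00779 to 0.0701, -0.0398 to 0.225, -0.744 to 2.00 and -0.343 to 0.618. The difference over the recurrently methylated gene models, 2.68, ran from 0.663 to 4.24 without each library. Gene models that passed were 0 to 0 in the regression and 0 to 8 with limma. The regression had little power for single gene models, so its 0 calls say nothing about stability. Limma called 5 with all libraries, 6 without control replicate 2 and Fisher's exact test on pooled counts 24, of which 9 were without overlap. Gene models without overlap, 10 as reported, were 5 at a minimum of 20 calls and 18 to 29 without each library, 23 of them (16 lower, 7 higher) without 9.S17; fewer libraries make separation easier. Against the other salinity libraries the difference of 0.0799 was 0.0966 at a minimum of 5 calls (exact permutation p = 0.0636), 0.0336 with each library's own covered gene models (p = 0.636, exact permutation) and -0.0322 there in libraries with a lowest count of 3. It was 0.0519 with counts below 4 set to 0 (exact permutation p = 0.0455). The causes were not tested. The settings on every listed gene model, limma without single libraries, the lowest count of 3, own covered gene models against the other salinity libraries, and all those for gene models without overlap were chosen after the data were seen.

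The labels give no replicate numbers. With the title bands as a replicate block the regression called 0, with 16 at an unadjusted p under 0.05 and 2 residual degrees of freedom, and the blocked overall difference was 0.0434 percentage points (exact sign permutation over 3 bands, p = 0.5, where 0.25 is the smallest possible). Deviations from the group means correlated at 0.0754, -0.184 and -0.0160 in the bands, so the bands were not taken as pairs. At a median of 51 to 82 calls per gene model, levels below about that of a count of 3 were nearly missing. The rule behind this is not stated, so the limit of detection is not known.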
